A study of Gallus gallus with 4 samples.

Results

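The comparison described here set one expression array of articular cartilage dissected with some transient cartilage (TC+AC) against one array of purely transient cartilage (TC), both from the tibia of white leghorn chicken embryos at embryonic day 14 (E14, Hamburger-Hamilton stage 40). These are 2 of the 4 arrays of the series. The other pair held the same dissections at day 12 (E12, stage 38) and is used only to show where E14 differs. Total RNA was hybridized to Affymetrix chicken arrays, and there was 1 array for each dissection and stage. No difference therefore has a replicate check, and no p-value is given. The labels do not say how many embryos were pooled for an array. TC+AC also contained transient cartilage, so a difference between the samples is a difference between a mixture and one of its parts. In bulk tissue, fewer cells of a type and less RNA per cell cannot be told apart.

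Transient cartilage is the cartilage template of a long bone. Its chondrocytes divide, enlarge into hypertrophic cells that deposit collagen X and calcify their matrix, and are replaced by bone. Articular cartilage forms at the ends of the template, next to the joint interzone, and persists. Parathyroid hormone-related protein, Indian hedgehog, BMP and WNT signals are known to set the pace of the change from one state to the other.

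Both samples carried high cartilage transcripts, on the normalized linear intensity scale that is used throughout. The brightest probe set of COL2A1, the main cartilage collagen gene, read 6527 in TC and 5475 in TC+AC at E14. COL9A1, which encodes a chain of collagen IX, read 9355 and 5772 on its brightest probe set. Both lay far above background, which was 15.6 on the TC array and 24.6 on the TC+AC array (95% of the 541 virus probe sets lay at or below it). COL9A2, the gene of another collagen IX chain, was dim, at 44.05 and 40.9 on its only probe set. The joint marker GDF5 read 437 in TC and 432 in TC+AC for its brighter probe set and 128 and 58.4 for its dimmer one.

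The TC+AC array at E14 was the dimmest of the 4 as deposited, with a median intensity of 13.1 beside 20.6 to 23.1 on the others. Its 3' over 5' ratios for the actin and EF1-alpha controls were 7.48 and 3.97, beside at most 4.01 and 1.64 elsewhere, while GAPDH read 1.59 beside 1.18 to 1.55. The E14 pair correlated at r = 0.82 over 38439 probe sets and the E12 pair at r = 0.92. Probe sets of one gene also disagreed more at E14. The median range of the log2 difference within a gene was 0.94 over 4011 genes at E14 and 0.45 over 4352 genes at E12. In 120 genes at E14 and 3 at E12, 1 probe set was at least 2-fold higher and another at least 2-fold lower. COL11A1 was one of the 120: its 4 brightest probe sets were between 1.47-fold and 2.49-fold lower in TC+AC, and its dimmest was 3.05-fold higher. COL2A1 was another: beside its brightest probe set, one read 1042 in TC and 301 in TC+AC (3.46-fold lower). A dimmer one read 60.7 and 134 (2.22-fold higher). The part of RNA quality in the results was not tested. Statements therefore rest on genes with 2 or more measured probe sets that were all at least 2-fold apart in one direction, called agreeing genes.

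Of 13009 genes named on the array, 4011 had 2 or more measured probe sets at E14. TC+AC was higher for 187 of them (4.66%) and lower for 185 (4.61%). At E12 the same rule found 28 of 4352 genes higher (0.643%) and 23 lower (0.528%). A further 5760 genes had a single measured probe set at E14, and 1329 of these were at least 2-fold higher (23.1%) and 617 at least 2-fold lower (10.7%). These single readings have no second probe set to check them, and more of them point upward than downward. The filter treated the 2 directions unequally, since background at E14 was 15.6 in TC and 24.6 in TC+AC. A probe set above background in TC+AC alone always counted as higher. One above background in TC alone was dropped where its TC value lay below 24.6. At E12 the backgrounds were 18.85 and 19.1. With no filter on dim probe sets, 206 genes were higher and 320 lower. Of these, 104 and 138 were among the 187 and 185. The part of the unequal backgrounds alone was not tested. The counts of each gene list below are to be read beside the shares over all genes given above. All lists and their members were chosen with earlier results of these data known, so the list values are a description only.

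**Figure D1:**
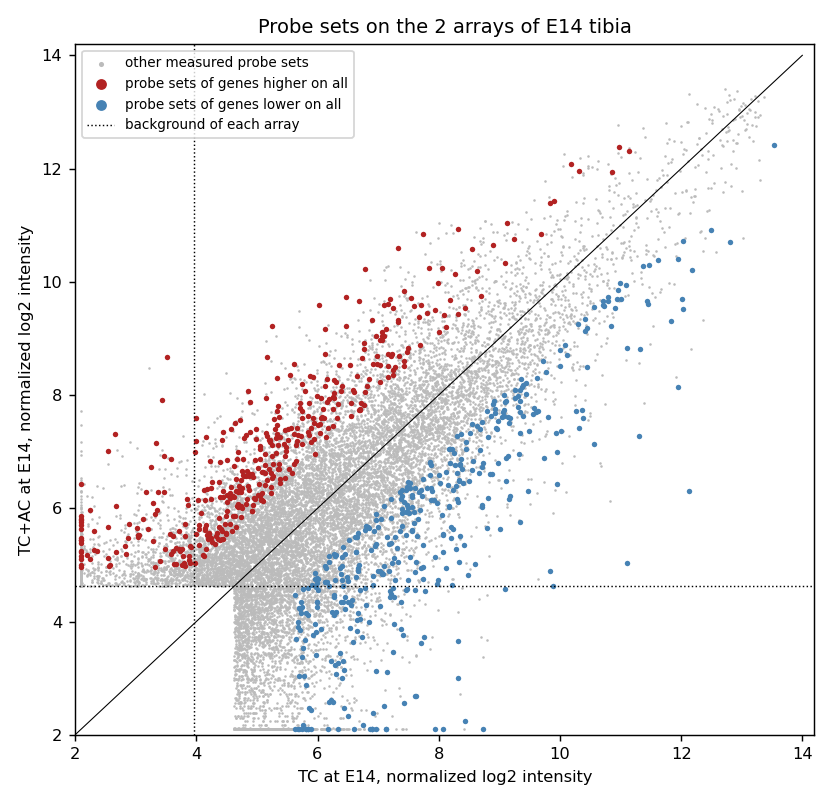
Normalized log2 intensity of every probe set of a named gene measured at E14, with TC on the horizontal and TC+AC on the vertical axis. Red and blue points are the probe sets of the 187 agreeing genes higher and the 185 lower in TC+AC, the line marks equal values, and the dotted lines mark each array's background. The 2 sets lie on either side of a wide grey band, and some of each lie below background on the dimmer side.

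The balance of the split depended on how the arrays were put on a common scale. After quantile normalization of all 4 arrays, higher genes made up 50.3% of the agreeing genes, and normalizing the E14 pair alone gave 48.4% and cyclic loess 43.4%. Centring the medians gave 23.9%, the deposited values 0.624% and scaling on the spiked hybridization controls 0.081%. These scalings moved the median log2 difference over probe sets measured on both arrays from 0.11 to 0.10, 0.04, -0.17, -0.99 and -1.50, in that order. All 185 lower genes kept the sign of every measured probe set under all 6 scalings, as did 51 of the 187 higher genes. Which probe sets counted as measured was set anew under each scaling. A higher gene could therefore also fail through a newly measured probe set, without a change of sign on the others. Every other scaling moved the median downward, so the lower genes had little room to change sign and their count is no sign of stability. A statement that a gene was higher is one relative to the other transcripts on the array.

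**Figure D2:**
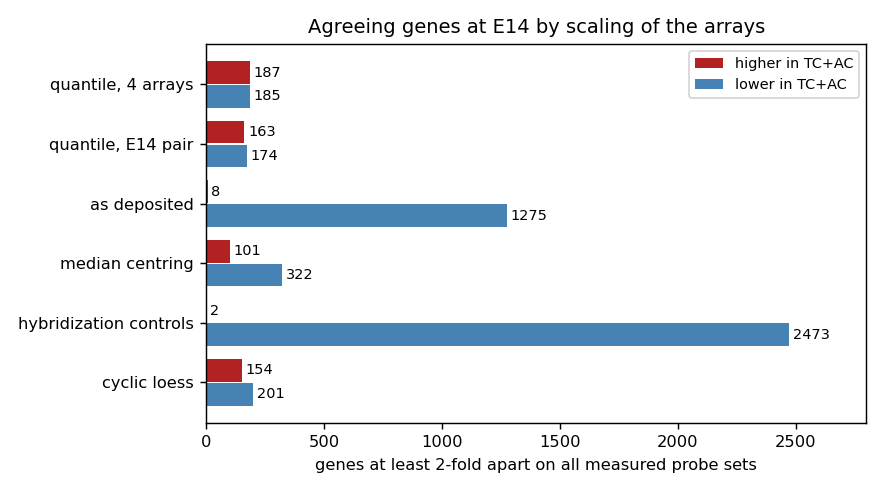
Number of agreeing genes at E14 that were higher (red) or lower (blue) in TC+AC under each of 6 ways to scale the arrays. The counts were 187 and 185 after quantile normalization of 4 arrays but 8 and 1275 as deposited.

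SMPD3 was the lowest agreeing gene in TC+AC by its smallest difference among the genes named here, and SLC13A5 and PTH2R, also of mineralizing cartilage, were among the 15 lowest. SMPD3, which encodes a neutral sphingomyelinase needed for skeletal mineralization, read 4472 in TC and 79.0 in TC+AC at E14 for its brighter probe set, a 56.6-fold difference. Its second read 913 and 29.6, a 30.8-fold difference. At E12 the brighter set read 2178 and 109, so TC was the high sample at both stages and the gap on this set was wider at E14. The second set read 368 and 12.3 at E12, below background in TC+AC. That gives at least 19.3-fold, so no wider gap at E14 can be read from it.

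SLC13A5, whose protein imports citrate, was lower on all 3 probe sets, which read 949, 321 and 423 in TC and 24.8, 33.1 and 4.28 in TC+AC. The first and second differed 38.3-fold and 9.71-fold, and the third, below background in TC+AC, at least 17.2-fold. PTH2R, as the annotation names the parathyroid hormone receptor gene that also carries the synonym PTH1R, read 2535 in TC and 156 in TC+AC, a 16.3-fold difference, and its second probe set was at least 4.91-fold lower. MEF2C, a transcription factor gene that drives chondrocyte hypertrophy, read 95.7, 101 and 54.0 in TC and was below background in TC+AC on all 3 probe sets, which bounds the differences at 3.90-fold, 4.11-fold and 2.20-fold. All 4 of these genes were thus high in TC on every measured probe set.

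In the list of prehypertrophic and hypertrophic genes, which holds all 4, 7 of 20 measured genes had 2 or more measured probe sets; 4 of those 7 agreed as lower and 0 as higher. Among the other 13, 6 were lower and 1 was higher on a single probe set, beside 10.7% and 23.1% of single readings over all genes. The list's median log2 difference was -1.42, beside 0.03 over all genes, and lay between -1.90 and -1.42 relative to all genes under the 6 scalings. COL10A1, the collagen X gene, read 3876 in TC and 318 in TC+AC, a 12.2-fold difference on its only probe set. BMP6, a BMP ligand gene of hypertrophic cells, read 446 in TC and was at least 18.1-fold lower. RUNX2, the transcription factor gene of hypertrophic chondrocytes and osteoblasts, was 3.30-fold lower, and PTCH1, the hedgehog receptor and target gene, 2.15-fold lower. S100A1 was the single gene above 2-fold higher, with a log2 difference of 1.01 that did not keep its sign under all scalings. PANX3, a channel gene of prehypertrophic cells, had a median log2 difference of -2.21 over probe sets of unequal size, and MEF2D one of 1.22 over probe sets that disagreed. RSPO3, MMP13, PHEX, FOXA2, ENPP1, CCN2 and HDAC4 lay under 2-fold, and IHH, ALPL, VEGFA, CNP3 and GLI1 were not measured at E14.

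SPP1 and IBSP, matrix protein genes that hypertrophic chondrocytes share with osteoblasts, were 10.7-fold and 6.01-fold lower in TC+AC at E14. IBSP read 288 in TC at E14 and 1963 in TC at E12. IFITM5, a gene of bone-forming cells, read 558 and 64.7 at E14 beside 2789 and 105 at E12. BGLAP, the osteocalcin gene, went the other way at E14, with 48.7 in TC and 113 in TC+AC on a single probe set that did not keep its sign under all scalings, after 282 and 89.2 at E12. In the osteoblast list, 1 of 6 genes with several measured probe sets was lower (PTH2R) and 1 higher (CDH11, a cadherin gene of mesenchymal cells, 2.08-fold and 5.26-fold, which reversed to a log2 difference of -0.04 when scaled on hybridization controls). The median was -0.59. The part of bone-forming cells attached to TC in these values was not tested.

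Some genes of ion and mineral handling held differences that E12 lacked. CA12, a membrane carbonic anhydrase gene, read 13.8 in TC and 22.5 in TC+AC at E12, and 310 and 39.0 at E14, on its brighter probe set; the other read 19.9, 28.7, 346 and 4.72. TC at E14 was the high sample among the 4 on both, by 7.95-fold and at least 14.1-fold over TC+AC. ATP2B1, a plasma membrane calcium pump gene, read 55.8 and 74.7 at E12 and 268 and 46.8 at E14, and its probe sets were 5.73-fold and at least 5.10-fold lower in TC+AC at E14. CA2, a cytosolic carbonic anhydrase gene, was 9.89-fold lower at E14 and 1.33-fold lower at E12 on its only probe set. ANXA5, an annexin gene of matrix vesicles, was 3.56-fold lower. Of 9 genes of the mineralization and transport list with several measured probe sets, 4 were lower and 0 higher (SMPD3, SLC13A5, CA12 and ATP2B1). Over all such genes, 4.61% were lower and 4.66% higher. SMPD3 and SLC13A5 agreed as lower at E12 too, while CA12 and ATP2B1 did not. SMPD3 and SLC13A5 are also counted in the hypertrophic list, so the 2 lists are not separate. Of the list's 10 single readings, 4 were lower and 2 higher, beside 10.7% and 23.1% over all genes. The list's median was -0.76 at E14 and 0.28 at E12.

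Some matrix genes of cartilage were lower in TC+AC as well. MATN3, a matrilin gene of growth cartilage, read 307 and 168 at E12 and 4146 and 826 at E14. Its probe sets were 5.02-fold and 7.15-fold lower in TC+AC at E14. COL27A1, a fibrillar collagen gene of cartilage, read 408 and 436 at E12 and 1997 and 922 at E14, and its probe sets were 2.17-fold and 7.75-fold lower. On every measured probe set of both genes, TC at E14 was the highest of the 4 samples. MATN1, the matrilin gene first known from cartilage, was 3.93-fold and 2.49-fold lower.

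Those were the 3 agreeing genes of 15 in the cartilage matrix list. Of the other 12, 10 had probe sets that did not all pass 2-fold one way, 2 lay under 2-fold throughout and 0 agreed as higher. Of the list's 12 single readings, 3 were higher and 4 lower, beside 23.1% and 10.7% of single readings over all genes. The list's median was -1.11 beside -0.16 at E12. COMP, the cartilage oligomeric matrix protein gene, missed the rule through 1 of its 4 probe sets. The brightest read 108 and 114 at E12 and 2682 and 233 at E14, an 11.5-fold difference, the others were 25.8-fold, at least 13.9-fold and at least 1.95-fold lower, and each had its highest value in TC at E14. ACAN, the aggrecan gene, was 8.16-fold lower on a probe set that read 5234 in TC and at least 1.398-fold lower on a dim one. The 3 measured probe sets of COL9A1 were 1.62-fold, 14.6-fold and at least 2.37-fold lower, so this gene had one sign and unequal sizes. SOX9, the master transcription factor gene of chondrocytes, read 398 in TC and 154 in TC+AC on its only probe set.

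**Figure D3:**
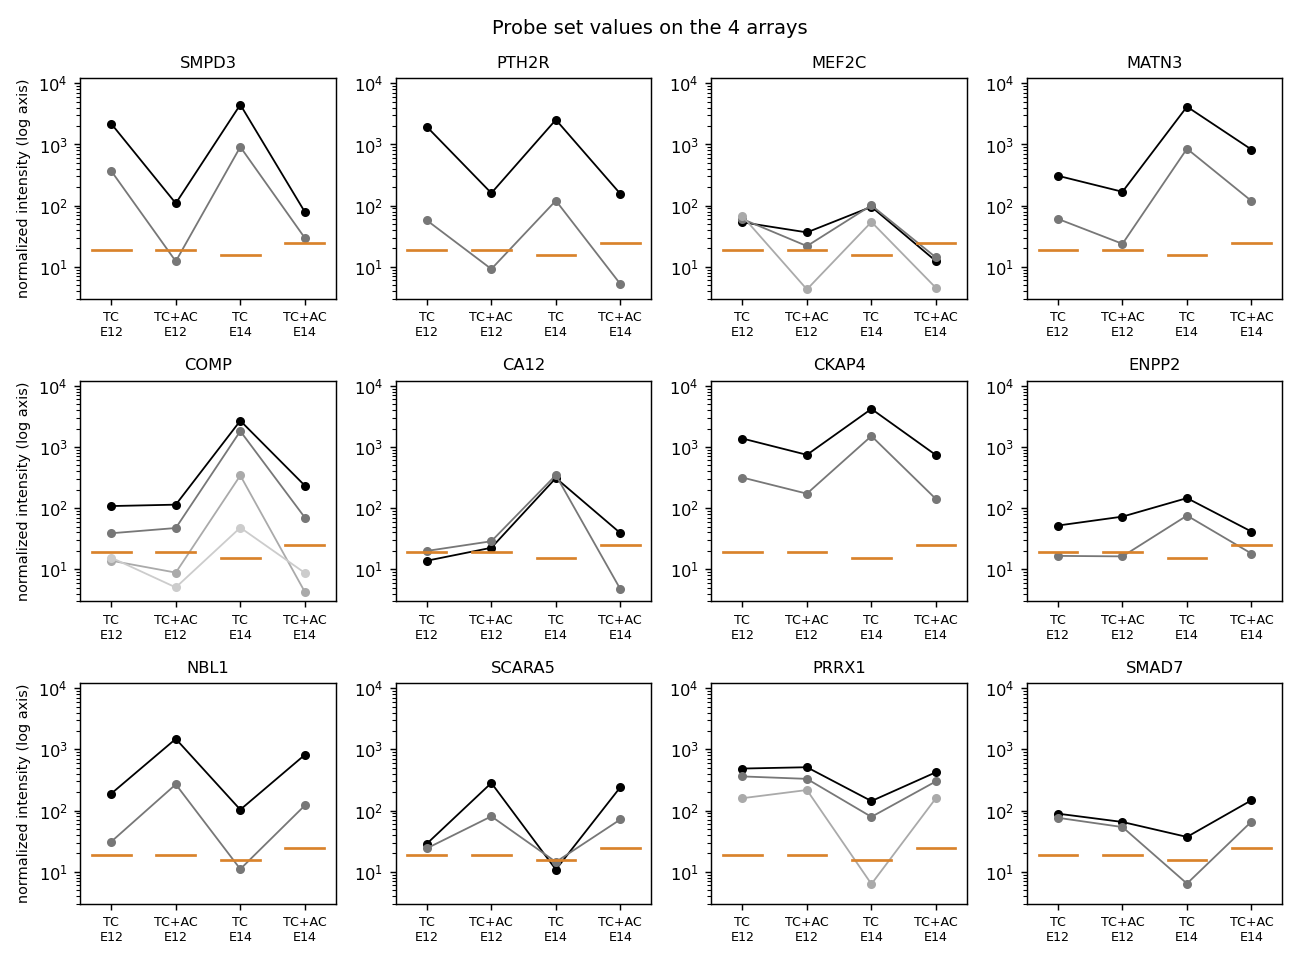
Normalized linear intensity (log axis) of each measured probe set of 12 genes on the 4 arrays, with 1 line for each probe set and orange bars at each array's background. SMPD3 and PTH2R are low in TC+AC at both stages, MATN3, COMP and CA12 are highest in TC at E14, and PRRX1 and SMAD7 are lowest in TC at E14.

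Genes of the secretory pathway formed a further block of lower values. CKAP4, an endoplasmic reticulum membrane protein gene, read 4181 in TC and 736 in TC+AC on its brighter probe set, and its sets were 5.68-fold and 10.7-fold lower. HSP90B1, the gene of the reticulum chaperone GRP94, read 3656 and 631 and was 5.79-fold and 2.69-fold lower. PLOD2 and P4HA1, which encode hydroxylases of collagen lysine and proline, were lower by 4.83-fold and 2.14-fold, and by 3.42-fold and 2.50-fold. SEC24D, a gene of the coat that carries procollagen out of the reticulum, was lower on all 5 probe sets, from 2.003-fold to 12.02-fold. ALG12, a mannosyltransferase gene of N-glycan assembly, was 7.78-fold and 11.97-fold lower, and YIPF4, a Golgi membrane protein gene, 6.05-fold and 8.39-fold.

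Of 21 genes of the folding and export list with several measured probe sets, 6 were lower (HSP90B1, P4HA1, PLOD2, SEC61A1, SEC24D and DNAJB9) and 0 higher. Over all such genes, 4.61% were lower and 4.66% higher. Of the list's 18 single readings, 10 were lower and 1 was higher, beside 10.7% and 23.1% of single readings over all genes. HSPA5, the gene of the chaperone BiP, read 2872 in TC and 481 in TC+AC at E14 and 976 and 1035 at E12. The list's median was -1.02 at E14 and -0.18 at E12, and it lay between -1.11 and -0.91 relative to all genes under the 6 scalings. Glycosaminoglycan genes had a median of -0.46. Of 22 with several measured probe sets, 2 were lower and 1 was higher. Another 8 lay under 2-fold, and 11 had probe sets that did not all pass 2-fold one way. Of 22 single readings, 7 were lower and 4 higher. The 2 lower genes were CSGALNACT1, which starts chondroitin chains, and PAPSS1, which makes the sulfate donor. CSGALNACT1 was 4.65-fold and 4.07-fold lower, and PAPSS1 2.15-fold, 7.46-fold and 8.94-fold. CHST1, a sulfotransferase gene, was 2.38-fold and at least 3.23-fold higher, which turned to a log2 difference of -0.12 under scaling on hybridization controls. SDC2, the syndecan-2 gene, was 2.35-fold and 3.89-fold lower.

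Other lower genes lay outside these groups. F13A1, which encodes the factor XIII transglutaminase that cross-links matrix, read 494 and 229 at E12 and 3966 and 281 at E14, and was 14.1-fold, 66.9-fold and at least 13.03-fold lower on its 3 probe sets. UPK1B, a tetraspanin gene, was 6.31-fold, at least 22.2-fold and at least 10.9-fold lower. HPGDS, the prostaglandin D synthase gene, read 227 and 82.2 at E12 and 461 and 97.2 at E14, so its 2 TC values were high at both stages. PLTP, the phospholipid transfer protein gene, was 3.82-fold and 10.4-fold lower at E14. PTPN2, MPP6 and MAP3K5, which encode a tyrosine phosphatase, a membrane scaffold and a stress kinase, were lower by at least 4.54-fold on each measured probe set. Glycolytic GPI and ENO1 were lower, ENO1 from 11884 in TC to 5439 in TC+AC, although the glycolysis and hypoxia list, with 3 of 13 genes lower and 0 higher, had a median of -0.17. FASN and ELOVL5 of fatty acid synthesis were the 2 agreeing genes of 14 in their list, both lower, with a median of -0.20.

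Among lower genes whose E12 probe sets were all under 1.5-fold were also RECK, an inhibitor gene of matrix metalloproteases, CAMK4, a calcium-dependent kinase gene, and BACE2, an aspartyl protease gene. RECK read 60.0 and 50.3 at E12 and 176 and 46.2 at E14, with differences of 3.82-fold and at least 7.13-fold. CAMK4 read 108 and 102 at E12 and 149 and 42.0 at E14. BACE2 read 45.8 and 39.0 at E12 and 153 and 15.5 at E14, at least 6.22-fold lower. The E14 gap thus came with a higher TC and a lower TC+AC value than at E12 in each of these brightest probe sets. The TC+AC value of BACE2 at E14 lay below background, and the second probe set of CAMK4 rose in TC+AC, from 42.6 to 56.0. NBAS, PCID2, TIMM44 and the gene annotated as USP12-like completed the group named by this rule, with median log2 differences of -2.04, -2.55, -2.03 and -1.91.

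SCARA5 and NBL1 were among the 15 highest agreeing genes in TC+AC that kept every sign under all scalings, and CHODL agreed as higher below these 15. SCARA5, a ferritin receptor gene, read 28.7 and 283 at E12 and 10.8 and 241 at E14, and lay below background in TC at E14 on both probe sets, at least 15.5-fold and at least 4.60-fold lower than in TC+AC. NBL1, which encodes a secreted BMP antagonist, read 103 in TC and 814 in TC+AC at E14 (7.87-fold), and its second probe set was at least 7.79-fold higher. CHODL, the chondrolectin gene, read 453 and 1405 at E12 and 144 and 778 at E14, 5.42-fold and 3.31-fold higher at E14. All 3 genes were high in both TC+AC samples and kept their sign under all 6 scalings.

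In the list of joint surface, synovial and superficial fibroblast genes, 2 of 7 genes agreed as higher and 0 as lower (SCARA5 and MFAP5), with a median of 0.82. Over all genes with several measured probe sets, 4.66% were higher and 4.61% lower. Of the list's 17 single readings, 7 were higher and 2 lower, beside 23.1% and 10.7% over all genes. Like those of the other lists, its members were chosen with earlier results of these data known, so these values are a description only. MFAP5, a microfibril gene, was 2.01-fold and 2.43-fold higher, which turned to log2 differences of -0.09 as deposited and -0.61 under scaling on hybridization controls. The median of the fibrous and tendon list was 0.52, with 3 of 21 genes higher (EGR1, MFAP5 and MFAP2, the last also reversed on hybridization controls) and 0 lower. EGR1, an immediate early transcription factor gene that also acts in tendon, read 683 and 988 at E12 and 192 and 761 at E14. TC at E14 was its lowest sample, and the probe sets were 3.96-fold and 3.799-fold higher in TC+AC.

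Transcription factor genes of limb and joint patterning had 3 of 6 genes higher and 0 lower. Over all genes with several measured probe sets, 4.66% were higher and 4.61% lower. Of the list's 14 single readings, 8 were higher and 0 lower, beside 23.1% and 10.7% of single readings over all genes. Its median was 1.05 and lay between 0.73 and 1.02 relative to all genes under the 6 scalings. PRRX1, a homeobox gene of limb mesenchyme, read 486 and 511 at E12 and 143 and 423 at E14 on its brightest probe set. Its 3 probe sets were 2.96-fold, 3.81-fold and at least 10.2-fold higher at E14, though not every one kept its sign under all scalings. PRRX2, its paralog, read 129 and 198 at E12 and 40.2 and 158 at E14, 3.94-fold and at least 3.72-fold higher. In both genes TC at E14 was the low sample and the other 3 lay together. HOXA11, a homeobox gene of the middle limb segment, was instead higher at both stages, with 126 and 367 at E12 and 151 and 350 at E14, and its sign turned to -0.30 on hybridization controls.

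Signalling genes differed in both directions. SMAD7, which encodes the inhibitory SMAD of TGF-beta and BMP signalling, read 89.0 and 65.1 at E12 and 37.1 and 147 at E14. It was 3.98-fold and at least 4.25-fold higher in TC+AC at E14, and 1.37-fold and 1.42-fold lower at E12. NBL1 was the other of the 2 agreeing genes among 11 of the BMP list, whose median was -0.03. In the WNT list of 14 genes, FZD7, a WNT receptor gene, was higher by 3.50-fold and at least 3.18-fold. DACT2, a WNT and TGF-beta modulator gene, was higher by 2.41-fold and 7.85-fold without keeping every sign under all scalings. WNT11, a ligand gene, read 40.6 and 83.6 at E12 and 188 and 65.2 at E14, so its order turned between the stages, and it was 2.88-fold and 2.16-fold lower at E14.

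Of 6 hedgehog and PTHrP genes, CDON, a hedgehog co-receptor gene, was higher by 11.4-fold, 6.11-fold and at least 2.51-fold, although not every probe set kept its sign under all scalings. DISP1, whose protein releases hedgehog from its source cells, was lower by 3.61-fold, 5.79-fold and 2.30-fold, as was PTH2R. DISP1 read 97.8 and 67.3 at E12 and 324 and 89.8 at E14. The list's median was -0.63. The FGF list had 0 agreeing genes of 7 in either direction. Its median was 1.05, or 0.68 to 1.02 relative to all genes under the 6 scalings. Of its 13 single readings, 9 were higher and 0 lower, beside 23.1% and 10.7% of single readings over all genes. Its single readings included FGF10 (1.83 log2), FGF18 (1.66), DUSP6 (2.29) and, without keeping its sign under all scalings, FGFR4 (1.27), while FGFR3, the receptor gene of growth cartilage, had a median of -1.07 over disagreeing probe sets.

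Established joint genes gave a mixed picture at E14. Of 10 genes of the joint interzone and articular list with several measured probe sets, 0 were higher and 1 was lower. Of 11 single readings, 8 were higher and 1 was lower, beside 23.1% and 10.7% of single readings over all genes. The list's median was -0.09 beside 0.51 at E12. The agreeing gene was ENPP2, which encodes autotaxin, the lysophosphatidic acid-producing enzyme found at joint surfaces. It read 51.9 and 72.6 at E12 and 146 and 41.3 at E14, and was 3.53-fold and at least 3.07-fold lower in TC+AC.

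The second probe set of GDF5 was 2.20-fold lower, beside the 1.01-fold of its brightest. ERG, an ETS factor gene of articular chondrocytes that endothelium also expresses, was 1.29-fold and at least 3.05-fold lower. SULF1, a heparan sulfatase gene, was lower on all 6 measured probe sets, from 1.84-fold to 3.34-fold. HHIP, the hedgehog-interacting protein gene, was 1.84-fold and at least 3.73-fold lower. NFIA, a nuclear factor I gene, read 146 and 409 at E12 and 255 and 172 at E14 on its brighter probe set. Its 2 probe sets had log2 differences of 1.49 and 1.52 at E12 and -0.57 and -0.89 at E14, so the higher sample changed from TC+AC to TC. TRPS1, a zinc finger repressor gene of joint and growth cartilage, likewise read 30.9 and 84.6 at E12 and 224 and 62.3 at E14 on its only probe set. HAS2, a hyaluronan synthase gene of the surface list, read 51.4 and 248 at E12 and 345 and 139 at E14. In TRPS1 and HAS2 the TC value at E14 exceeded both TC+AC values.

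The higher members were single readings. GSC, a homeobox gene, read 22.6 in TC and 336 in TC+AC at E14, and WNT4, a joint WNT ligand gene, 30.0 and 233. BARX1 and CHRD were 4.36-fold and 3.48-fold higher, TPPP3 at least 9.30-fold, GATA3 at least 3.04-fold and WNT16 2.06-fold, the last without keeping its sign under all scalings. SFRP2, a secreted WNT modulator gene, read 720 and 653 at E12 and 87.6 and 549 at E14, so its 6.26-fold difference came with a TC value at E14 below all others. CD44, DCX, COL3A1 and SOX5 had probe sets that disagreed, NOG and CREB5 lay under 2-fold, and WNT9A, OSR2 and CILP were not measured at E14.

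**Figure D4:**
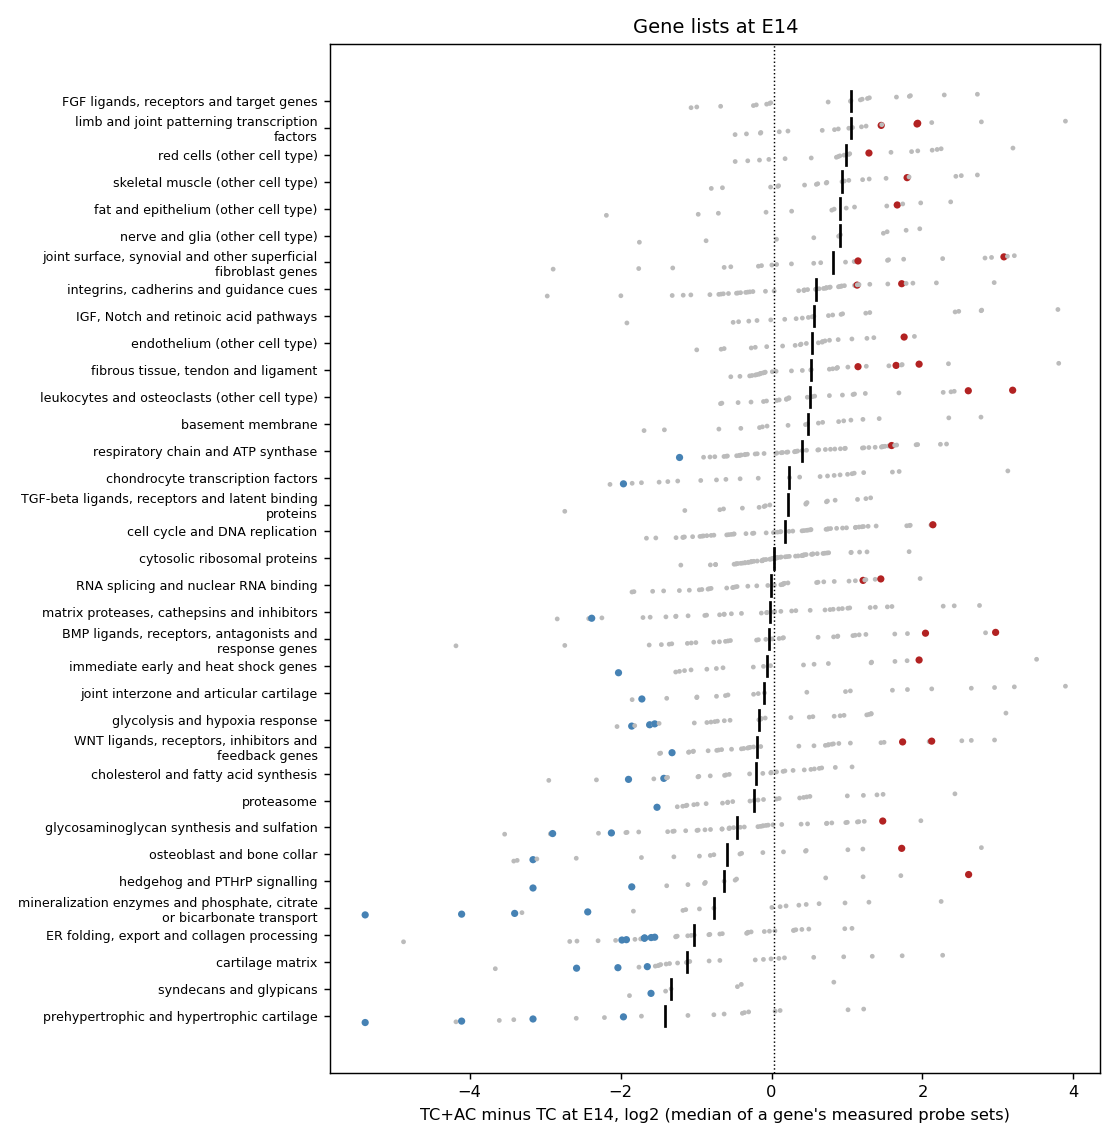
Log2 difference of TC+AC minus TC at E14 for every measured member of 35 gene lists, sorted by the list's median (black bar). Red and blue points are agreeing genes higher and lower in TC+AC, grey points are all other genes, and the dotted line is the median of all genes (0.03). The hypertrophic list has the lowest median at -1.42, and the FGF and patterning lists the highest at 1.05.

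Several of the highest agreeing genes serve mitochondria, translation or the cell cycle. MRPL17, a mitochondrial ribosomal protein gene, read 656 and 974 at E12 and 109.8 and 1196 at E14, and its 3 probe sets were 10.9-fold, 5.62-fold and 4.86-fold higher. MRPL43, another, read 271 and 351 at E12 and 88.3 and 598 at E14. EEF1G, a subunit gene of the translation elongation factor, read 659 and 867 at E12 and 172 and 918 at E14. On the brightest probe sets of these 3 genes TC at E14 was the low sample and TC+AC at E14 the high one. TC at E14 was also the low sample on their other probe sets. TC+AC at E14 was the high one on that of MRPL43 but not on those of MRPL17 and EEF1G. From E12 to E14 these went in TC+AC from 942 to 772 and 786 to 739 for MRPL17, and from 398 to 285 for EEF1G.

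The mitochondrial genes PARS2 and GCDH, the actin-binding protein gene TWF2, the deacetylase gene SIRT2, the selenoprotein gene SELENOM, COMMD4 and the replication licensing gene CDT1 had median log2 differences between 2.02 and 2.66. In the respiratory chain and ATP synthase list, 1 of 18 genes was higher (NDUFB8, 1.59, reversed to -0.07 on hybridization controls) and 1 lower (ATP5C1, -1.22). Over all genes with several measured probe sets, 4.66% were higher and 4.61% lower. Of the list's 37 single readings, 15 were higher and 0 lower, beside 23.1% and 10.7% of single readings over all genes. Its median was 0.41. Cytosolic ribosomal proteins had 0 of 27 in either direction and a median of 0.03, which moved between -0.01 and 0.62 relative to all genes with the scaling. CDT1 was the agreeing gene of 19 in the cell cycle list, whose median was 0.18, and its side relative to all genes turned with the scaling, from -0.14 to 0.15. Genes that were higher were also shorter: the RefSeq span on GRCg7b had a median of 8.40 kb for 184 of the 187 higher genes, 29.9 kb for the 185 lower and 23.5 kb over 3988 genes with several measured probe sets. The part of gene or transcript length in the higher and lower counts was not tested.

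The remaining lists held few agreeing genes, beside 4.66% higher and 4.61% lower over all genes with several measured probe sets. Chondrocyte transcription factors had 1 of 10 lower (MEF2C) with a median of 0.24, matrix proteases and inhibitors 1 of 14 lower (RECK) with -0.01, and the proteasome 1 of 5 lower (PSMD7) with -0.23. Integrins, cadherins and guidance cues had 2 of 26 higher (CDH11 and SEMA3C) with a median of 0.58, and splicing genes 2 of 24 higher (SF3A1 and SNRPGP15) with -0.01; all 4 genes reversed when scaled on hybridization controls. The TGF-beta, basement membrane and IGF, Notch and retinoic acid lists had 0 of 8, 0 of 10 and 0 of 7 in either direction, with medians of 0.22, 0.48 and 0.56. Among immediate early and heat shock genes EGR1 was higher and HSP90AA1 lower, the latter by 2.32-fold and 7.17-fold.

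Lists of other cell types also stood above all genes at E14. Their medians were 0.93 for skeletal muscle, 0.54 for endothelium, 0.99 for red cells, 0.51 for leukocytes, 0.90 for nerve and glia and 0.91 for fat and epithelium, and at E12 -0.34, -0.12, 0.26, -0.06, 0.05 and -0.12. Under the 6 scalings these E14 medians lay between 0.32 and 1.05 above that of all genes. Probe sets above background in TC+AC alone could enter these lists only as higher, and those above background in TC alone only as lower. Because of the unequal backgrounds given above, the latter were dropped where the TC value lay below 24.6. The part of this filter in the E14 medians was not tested. Agreeing genes numbered 1 of 9 for muscle (MYH1B), 1 of 9 for endothelium (SOX17), 1 of 6 for red cells (ANK1), 2 of 5 for leukocytes (BLB1 and C1QB), 0 of 1 for nerve and 1 of 2 for epithelium (KRT5), all higher, although SOX17, ANK1 and KRT5 did not keep every sign under all scalings. BLB1, an MHC class II beta chain gene, read 667 and 847 at E12 and 214 and 1830 at E14 and was 8.55-fold, 9.56-fold and at least 9.16-fold higher, the largest smallest-probe-set difference among the higher genes named here that kept their sign under all scalings. C1QB, a complement gene of macrophages, was 7.99-fold and 4.65-fold higher, and CATH1, an antimicrobial cathelicidin gene, 4.48-fold and 7.65-fold.

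At E14 the brightest probe sets of the lists summed to 2288 in TC and 3483 in TC+AC for muscle, and 2300 and 2608 for endothelium. The sums were 10528 and 20636 for red cells, 2393 and 5438 for leukocytes and 1968 and 2602 for nerve. At E12 they were, in the same order, 6015 and 4645, 3601 and 3370, 20008 and 21299, 3887 and 4437, and 1833 and 2509. The TC+AC sum at E14 thus lay below both E12 sums for muscle and endothelium, and above both for leukocytes and nerve. The leukocyte sum includes BLB1, whose brightest probe set read 847 in TC+AC at E12 and 1830 at E14. Of the defining markers, MYH1E and MYLPF were at the floor on both E14 arrays and MYOD1 was below background, while ACTA1 read 63.7 and 346 and TNNC2 15.3 and 88.8. PECAM1 and TEK were below background in TC+AC, TIE1 read 5.50, below background, in TC and 81.6 in TC+AC, CDH5 146 and 249, and KDR 26.1 and 24.98. PTPRC and SPI1 were below background in TC+AC, while CSF1R read 81.2 and 117, CD74 252 and 369 and LCP1 58.2 and 98.8. Each of these leukocyte markers was lower in TC+AC at E14 than in both E12 samples. At E12 CD74 read 400 in TC and 388 in TC+AC, and LCP1 160 and 140. SOX10 of glia read 20.7 and 57.9. Haemoglobin genes were high in both, with HBA1 at 4497 and 10145. ACTA1 and CSF1R were lowest in TC at E14 among the 4 samples, ACTA1 having read 253 and 206 at E12 and CSF1R 197 and 126. The part of these cells in the higher genes of TC+AC was not tested.

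Most agreeing genes of E14 were small differences at E12. Of the 187 higher genes, 11 also agreed as higher at E12 and 0 as lower, 138 had all E12 probe sets under 2-fold, and 151 of 185 with an E12 value had the same sign there (81.6%). Of the 185 lower genes, 7 agreed as lower at E12 and 0 as higher, 152 were under 2-fold and 144 of 184 shared the sign (78.3%). Over all genes with several measured probe sets, 46.4% were above 0 at E12. The median log2 difference of the higher genes was 1.61 at E14 and 0.32 at E12, and of the lower genes -1.73 and -0.35. The genes lower at both stages were SMPD3, SLC13A5, LOC770392, PTH2R, HPGDS, PLTP and COL24A1, a fibrillar collagen gene. Those higher at both were NBL1, SCARA5, CHODL, GSTT1L, PHLDA2, LPAR2, RTN1, ITIH5, HOXA11, APOA1 and APRT; of these 11, NBL1, SCARA5 and CHODL kept the sign of every probe set under all 6 scalings.

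**Figure D5:**
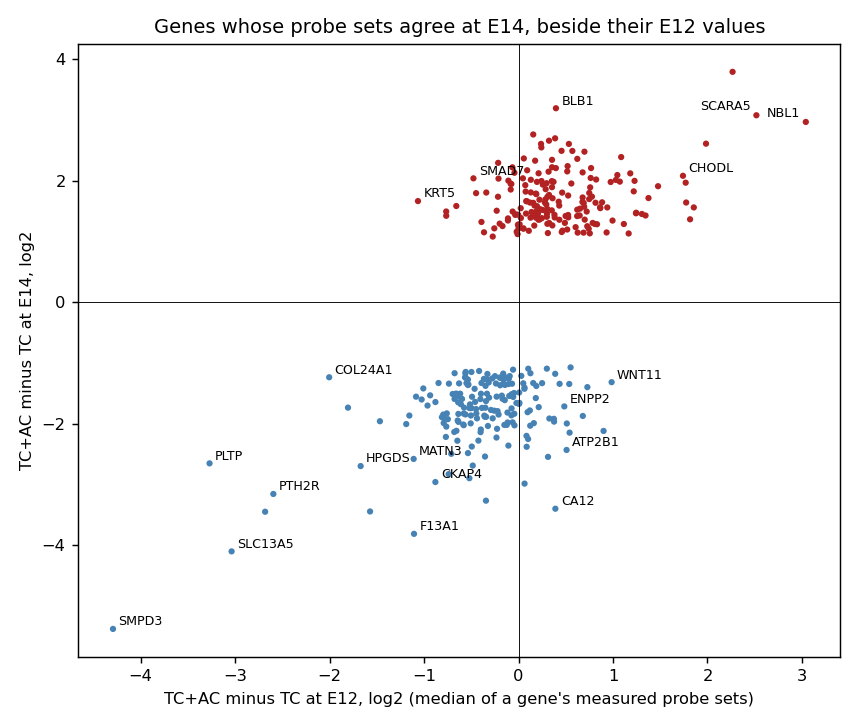
Median log2 difference of TC+AC minus TC over a gene's measured probe sets at E12 (horizontal) and at E14 (vertical) for agreeing genes of E14 with an E12 value, red where higher and blue where lower at E14. Most points lie within 1 log2 unit of 0 at E12, and SMPD3, SLC13A5, PLTP, PTH2R, NBL1 and SCARA5 lie far from 0 at both stages.

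Among the 4 arrays, TC at E14 stood at an extreme in most agreeing genes, which is a description, since the E14 values chose the genes. TC at E14 lay below both E12 samples in 171 of the 187 higher genes and above both in 179 of the 185 lower genes. TC+AC at E14 lay above both E12 samples in 148 of the higher and below both in 142 of the lower genes. The median log2 change from E12 to E14 was -0.99 in TC and 0.43 in TC+AC for higher genes, and 1.10 in TC and -0.51 in TC+AC for lower genes. With the values as deposited, TC at E14 lay below both E12 samples in 165 of the higher genes, and TC+AC at E14 above both in 12. For the lower genes on that scale, TC at E14 lay above both in 178 and TC+AC at E14 below both in 182, with median changes of 1.10 in TC and -1.58 in TC+AC. Across all scalings, TC at E14 lay beyond both E12 samples, on these same sides, in 134 to 177 of the higher genes. For the lower genes the range was 164 to 183. TC+AC at E14 did so in 126 to 182 of the lower genes and in 12 to 148 of the higher genes. The ends 177 and 164 came from normalizing the E14 pair alone, which left the E12 arrays as deposited and so not on a common scale with E14. TC at E14 was thus extreme in most agreeing genes under every scaling. Whether TC+AC at E14 was also extreme in the higher genes depended on the scaling.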

How the data were processed

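Per the labels' protocols, total RNA (5 µg a sample, Trizol) was biotin labelled for 4 Affymetrix chicken arrays. The deposited table holds linear intensities for 38535 probe sets; how the authors summarized, background-corrected or scaled them is not stated in the labels. The 96 control probe sets were left out and 38439 were quantile normalized with limma 3.58.1 (R 4.3.3), floored at the 20th percentile (4.28) and taken to log2. The platform annotation gave 27178 probe sets 1 gene symbol and 177 several, which were not used; 13009 genes were named, and checked by gene ID against a RefSeq table of GRCg7b, used also for gene spans.

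A probe set was measured where it exceeded background (95th percentile of 541 virus probe sets) on at least 1 array of the pair and its difference kept its direction with background in place of a dim value; such differences are lower bounds ("at least"). A gene agreed where 2 or more measured probe sets were all at least 2-fold the same way; its value is their median. With 1 array a side there is no test, and the number of arrays limits the precision. Named genes were the 15 highest and 15 lowest agreeing genes by their smallest difference that kept every sign under 6 scalings, the 8 of each side with E12 under 1.5-fold, agreeing members of 35 lists, and all joint and hypertrophic genes; others were named to illustrate a list after their values were seen. Members and lists were chosen with earlier results of these data known. Of list entries, 1119 were found by symbol, 40 by synonym and 173 not under their names. Figures used matplotlib 3.10.9. Sequences and promoters were not analysed here.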

Additional observations from a re-analysis of the deposited data

Results flagged for a closer look

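Of the 90 agreeing genes named here, 10 had all measured E12 probe sets on the other side of 0, and in 2 of these, KRT5 and WNT11, each was at least 1.5-fold the other way; the difference between the stages was not tested. The other 8 (ATP2B1, CA12, COL27A1, CSGALNACT1, ENPP2, MYH1B, PCID2 and SMAD7) had at least 1 E12 probe set under 1.5-fold. KRT5, a keratin gene of stratified epithelium, had a median log2 difference of 1.67 at E14, with 24.8 in TC and 107 in TC+AC for its brightest probe set, after 78.8 and 33.6 at E12; it turned to -0.028 at E14 when scaled on hybridization controls. WNT11 had a median log2 difference of -1.32 at E14 and 0.99 at E12.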

How the results depend on the processing

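The counts of agreeing genes at E14 moved with the scaling and the rule. The 187 higher and 185 lower genes became 8 and 1275 as deposited, 101 and 322 with median centring, and 2 and 2473 on hybridization controls. They became 113 and 89 without probe sets that can match several transcripts, 28 and 39 with at least 3 measured probe sets, and 15 and 17 at 4-fold. The brightest probe set alone, with no agreement asked, gave 1983 and 1272, and 1 sign on all probe sets with a median of at least 2-fold 392 and 492. With no filter on dim probe sets 206 genes were higher and 320 lower, and 104 and 138 of these were shared with the 187 and 185. Quantile normalization of the E14 pair, cyclic loess, background at the 99th percentile, a floor at the 10th and, chosen after seeing the data, leaving out bounds under 2-fold kept both counts within 1.5 times. Of 90 named agreeing genes, those that reversed on hybridization controls were SF3A1 (-0.57), MFAP5 (-0.61), SNRPGP15 (-0.48), ANK1 (-0.47), SEMA3C (-0.44), APOA1 (-0.34), HOXA11 (-0.30), ITIH5 (-0.23), APRT (-0.20), CHST1 (-0.12), NDUFB8 (-0.0705), MFAP2 (-0.064), CDH11 (-0.040), LPAR2 (-0.040) and KRT5 (-0.028); as deposited MFAP5 (-0.092) and SF3A1 (-0.056) did. The single readings of BGLAP, WNT16, S100A1 and FGFR4 also lost their sign under at least 1 scaling. A scaling adds an equal shift to every probe set of an array, except quantile and loess, which bend it with intensity. No paired analysis was possible because each group held 1 array, and no array could be left out for the same reason. Probe sets above background on only 1 array of the pair give only bounds. There were 2856 such probe sets above background in TC alone and 1147 in TC+AC alone. Probe sets whose bound did not keep its direction are not in these counts.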
